A study of Zea mays with 6 samples.

Results

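Young maize ears of a line labelled as an RHW1 knockout were compared with wild-type ears by RNA sequencing, using 4 of the 6 libraries of the study. The wild type and the knockout had 2 libraries each. The other 2 libraries, from 1 line labelled as overexpressing RHW1 (OE#1), served only as context and helped to estimate the spread between replicates; a comparison of overexpression with wild type shares the wild-type libraries. The ears were in early development, at most 0.5 cm long. The knockout is called rhw1-1 in the study's design and carries a CRISPR label in its library names; only 1 edited line was sequenced. The edit, the parent line, the promoter of the overexpression construct and the number of plants behind a library are not stated in the labels. P-values thus measure the spread between these libraries, which may be technical.

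The ear is the female inflorescence of maize and is wrapped by husk leaves, modified leaves that protect it and the kernels. At this stage an ear holds meristem, the dividing tissue that forms spikelet and floral primordia, beside other tissue. The tissue make-up of these samples was not measured. According to its title, the study concerns husk leaf width and a regulatory pathway of RHW1 and ZCN4. ZCN4 belongs to the family of phosphatidylethanolamine-binding proteins, whose plant members include FLOWERING LOCUS T and TERMINAL FLOWER1, regulators of flowering and inflorescence architecture.

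The table held 45578 genes, of which 22947 had enough reads to be tested. Total counts of the 4 libraries ranged from 22171948 to 23857611 reads. The deposited identifiers were paired with names only for microRNA genes, so RHW1 and ZCN4 could not be looked up, the knockout label could not be checked against its target, and tissue markers could not be read. All other genes are given by identifier and no function is assigned to them. Levels are counts scaled to library size (CPM), not corrected for gene length, so they are compared between libraries and not between genes of different length. Where genes are grouped by level or called abundant below, this means CPM alone, and gene length can enter. In bulk tissue, fewer cells of a type and less RNA per cell cannot be told apart.

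Knockout and wild type separated, but not far beyond the spread of replicates. A principal component analysis of log2 CPM in these 4 libraries put 41.4% of the variance on its first axis, with the wild-type libraries at -21.5 and -20.7 and the knockout libraries at 22.6 and 19.6. Pearson's r across genes, which are not independent replicates, was 0.990 within each genotype and 0.988 between them.

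In the knockout, 1954 genes (8.52% of those tested) passed the edgeR test at an adjusted p under 0.05. Of these, 926 (4.04%) were higher and 1028 (4.48%) were lower than in wild type. Falls outnumbered rises at each minimum size of change. Among genes changed by 1.1-fold or more, 829 were higher and 940 lower. At 1.5-fold or more, 53 were higher and 136 lower, and at 4-fold or more 6 were higher and 11 lower. Higher genes thus made up 46.9% of calls at 1.1-fold, 28.0% at 1.5-fold, 29.3% at 2-fold and 35.3% at 4-fold. Only 58 genes (0.253%) were called at 2-fold or more. The median called rise was 1.16-fold and the median called fall 1.20-fold.

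**Figure D1:**
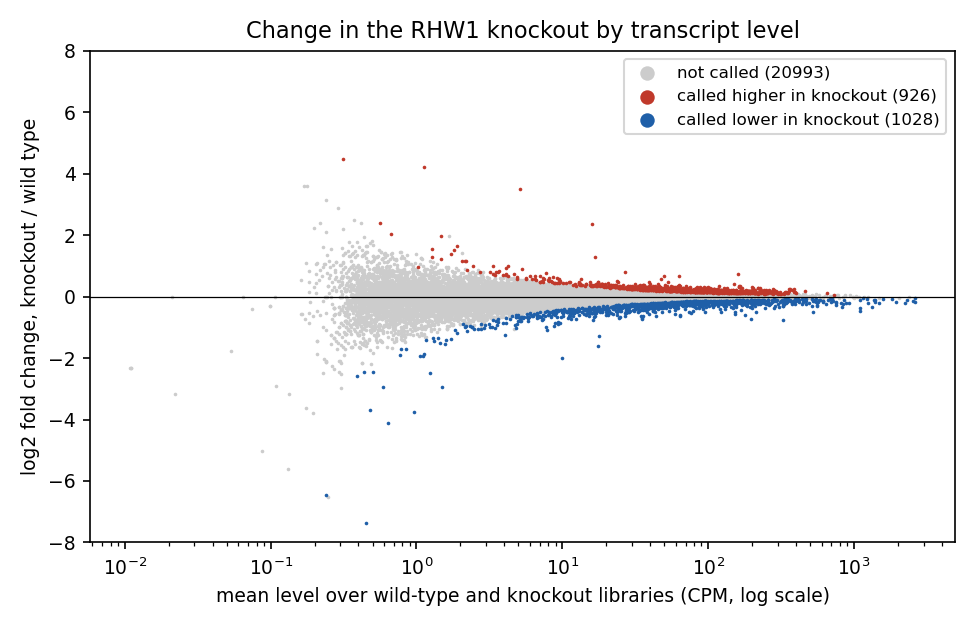
Each point is 1 of the tested genes, with its mean level over the wild-type and knockout libraries (CPM, log scale) on the x axis and the log2 fold change of knockout over wild type on the y axis; coloured points passed the edgeR test. Calls of weakly expressed genes were large, those of abundant genes were small, and at the far right only falls were called.

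The reads carried by these genes moved in the same way in both libraries of a genotype. Genes called higher held 8.06% and 8.11% of all reads in the wild-type libraries and 9.27% and 9.26% in the knockout libraries. Those called lower held 14.7% and 14.6% in wild type and 12.7% and 12.9% in the knockout. These shares describe genes chosen by the same libraries and are not a further test. In the overexpression libraries the shares were 8.88% and 8.87% for the first set and 13.1% in both for the second. Set beside the same wild-type libraries that chose the genes, these are not a further test either.

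Most genes with the highest CPM fell. Of the 28 tested genes with a mean of at least 1000 CPM, 19 (67.9%) were called lower and 0 higher. Among all tested genes the shares were 4.48% lower and 4.04% higher. A negative log2 fold change was found in 26 of the 28. Their falls were slight, with a median log2 fold change of -0.09, and the median stayed between -0.10 and -0.08 when any 1 wild-type or knockout library was left out. DESeq2 also called 19 of them lower. Of the 257 genes from 300 to 1000 CPM, 80 were called lower and 24 higher. The balance was the other way from 100 to 300 CPM, where 302 of 2134 genes were called higher and 232 lower. From 10 to 100 CPM the counts were close, with 534 higher and 565 lower of 12583. Below 10 CPM, 132 of 7945 were lower and 66 higher. The 28 genes above together took 4.61% and 4.58% of reads in wild type, 4.21% and 4.29% in the knockout and 4.25% and 4.26% in overexpression. Both wild-type libraries were above the other 4 in this share, and the overexpression values lay within the range of the knockout. With RLE scaling in place of TMM, 19 of the 28 were again called lower and 0 higher. Zm00001d048702 and Zm00001d048705, members of a run of identifiers described below, belong to the 28, so these results share genes.

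The precision behind a call differed widely with level. When the tested genes were divided by mean level into 4 groups of equal size, the median standard error of the log2 fold change was 0.38 in the lowest group (median level 1.56 CPM) and 0.05 in the highest (median level 90.1 CPM). The smallest change that passed was 1.48-fold in the lowest group and 1.04-fold in the highest. Of the 58 genes called at 2-fold or more, 51 lay in the lowest group and 0 in the highest.

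The clearest single changes were those of 2 abundant genes without a name, singled out after their values were seen because they had the smallest p in each direction. Zm00001d039566 had 119.9 and 118.6 CPM in the wild-type libraries, 195.1 and 203.8 CPM in the knockout libraries and 49.2 CPM in both overexpression libraries. The 3 genotypes did not overlap, with the knockout highest and overexpression lowest. Its log2 fold change in the knockout was 0.74 (SE 0.04, adjusted p = 2.04e-16, edgeR). Zm00001d010840 stood at 411.1 and 404.5 CPM in wild type, and the knockout libraries had 232.8 and 252.9 CPM. Its level in overexpression, 377.1 and 373.9 CPM, lay between those but near wild type. The log2 fold change in the knockout was -0.75 (SE 0.03, adjusted p = 1.56e-19, edgeR).

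Among named genes, the precursor of miR528 rose in the knockout. In grasses miR528 is known to act on transcripts of copper-containing oxidases and on other targets. For miR408 the known targets are transcripts of plantacyanins and laccases. Both microRNAs are known to be induced when copper is scarce. The precursor gene zma-MIR528a had 79 and 89 wild-type reads, 152 and 165 knockout reads and 209 and 273 in overexpression. Both knockout libraries were above both wild-type libraries and below both overexpression libraries. Summed over libraries and scaled to depth, knockout reads were 1.88 times those of wild type (95% counting interval 1.55 to 2.27, exact binomial). The log2 fold change was 0.90 (SE 0.17, adjusted p = 0.000495, edgeR). It passed in each of the 14 alternatives that gave an adjusted p, and no other rise that did so was larger.

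The precursor gene zma-MIR408b had 23 and 17 wild-type reads, 45 and 50 knockout reads and 69 and 81 in overexpression. The order of the genotypes was the same as for zma-MIR528a, without overlap. The reads of the knockout were 2.36 times those of wild type (95% counting interval 1.61 to 3.51), and the log2 fold change was 1.23 (SE 0.35, adjusted p = 0.0194, edgeR). This call was lost in 5 of 14 alternatives, with adjusted p from 0.0068 to 0.153. Leaving out wild type replicate 1, wild type replicate 2 or knockout replicate 2 each ended it.

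The other microRNA precursors gave few reads. Of 154 microRNA genes, 31 had a read in these 4 libraries and 10 could be tested, of which 2 (the pair above) were called, both higher, beside 4.04% of all tested genes called higher. With 10 genes tested, nothing is read from this count. Reads of zma-MIR168a, a precursor of the microRNA that limits ARGONAUTE1, were 105 and 59 in wild type and 63 and 83 in the knockout. For zma-MIR159a, of the family that acts on GAMYB-type factors, the reads were 34 and 64 against 42 and 54. In both the genotypes overlapped. zma-MIR160d, a precursor of the microRNA that targets transcripts of auxin response factors, had 7 and 6 wild-type reads and 8 and 17 knockout reads. These did not overlap, but the log2 fold change of 0.92 (SE 0.71) did not pass (adjusted p = 0.502, edgeR). Its relative zma-MIR160b had 27 and 19 against 37 and 14 reads, with overlap. The reads of zma-MIR166a, a precursor of the microRNA that restricts HD-ZIP III factors to the upper leaf side, were 35 and 16 against 30 and 28. zma-MIR528b, the near copy of zma-MIR528a, gave 0 and 11 reads for wild type against 0 and 1 for the knockout, too few for a direction. For zma-MIR168b the counts were 11 and 10 against 7 and 8, and for zma-MIR2118c they were 23 and 18 against 20 and 13; neither passed. At such counts only large changes could be detected.

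Genes with ENSRNA identifiers, a prefix that Ensembl uses for non-coding RNA genes, had few calls, and the share called higher was near that of all tested genes. Of 113 tested, 5 (4.42%) were called higher, beside 4.04% of all tested genes, and 0 were called lower, beside 4.48%. The log2 fold change was positive for 72 of the 113, with a median of 0.20, whereas the median of all tested genes was 0.001. Both knockout libraries were above both wild-type libraries for 30 of these genes and below for 11; among all tested genes the shares were 25% above and 24.2% below. Reads of all ENSRNA genes made up 0.0260% and 0.0242% of the wild-type libraries, 0.0304% and 0.0315% of the knockout libraries and 0.0306% and 0.0323% of the overexpression libraries. Both modified lines were thus above wild type in this share.

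Of the 5 called ENSRNA genes, ENSRNA049479549 was the steadiest, at 834 and 677 reads in wild type, 1057 and 1070 in the knockout and 1061 and 1315 in overexpression. In edgeR it rose by 0.48 on the log2 scale (SE 0.08, adjusted p = 2.92e-05), which passed in all 15 alternatives. ENSRNA049479257 had 925 and 820 reads against 1274 and 973, and ENSRNA049478109 had 68 and 54 against 116 and 99. The first lost its call in 5 of 15 alternatives and the second in 3 of 14, for both including without wild type replicate 2 and without knockout replicate 1. ENSRNA049478153 had 3 and 5 reads against 11 and 32 and lost its call in 5 of 13. ENSRNA049478207 had 13 and 24 wild-type reads and 16 and 404 knockout reads, so its rise came from 1 library. Without knockout replicate 2 its log2 fold change went from 3.52 to -0.28 (adjusted p = 0.88, edgeR). Without this gene, ENSRNA reads were 0.0304% and 0.0297% of the knockout libraries.

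**Figure D2:**
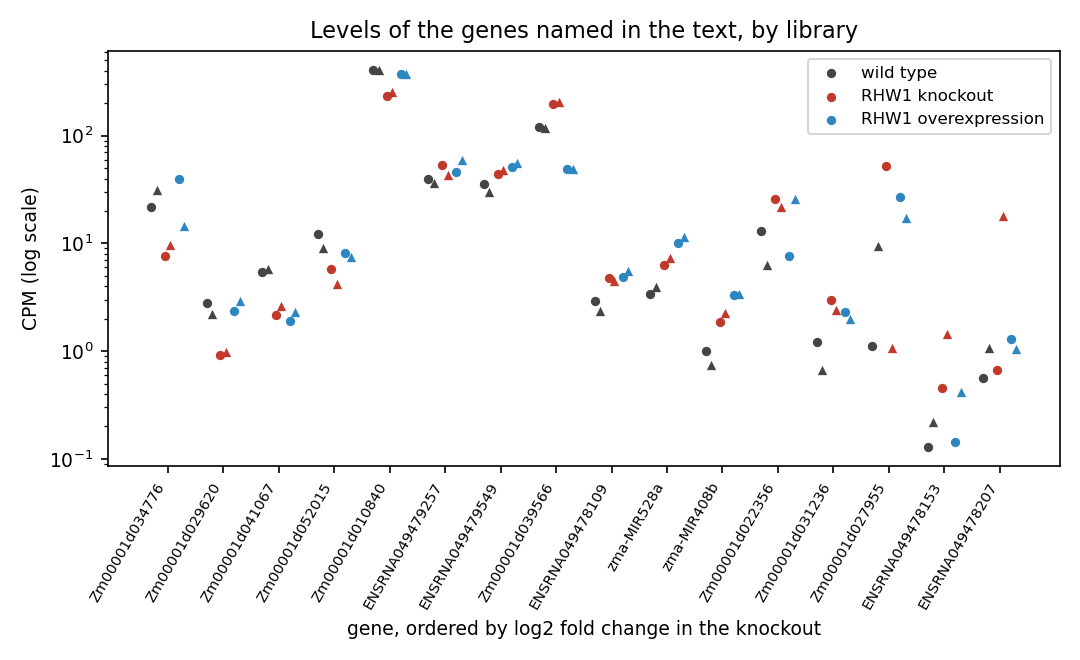
Levels in each library (CPM, log scale) of the genes described one by one, apart from those at or near 0 reads, ordered by log2 fold change in the knockout; circles are replicate 1, triangles replicate 2, and colours the genotype. zma-MIR528a and zma-MIR408b step up from wild type to knockout to overexpression, while the high values of Zm00001d027955 and ENSRNA049478207 in the knockout come from 1 library each.

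Among unnamed called genes whose average log2 CPM reached 1 and whose genotypes did not overlap, Zm00001d031236 and Zm00001d022356 had the largest rises. Zm00001d031236 had 28 and 15 wild-type reads, 71 and 54 knockout reads and 48 and 47 in overexpression; its log2 fold change was 1.52 (SE 0.35, adjusted p = 0.0039, edgeR). Leaving out wild type replicate 2 raised the adjusted p to 0.093 and leaving out knockout replicate 1 raised it to 0.071, which ended the call. Zm00001d022356 had 303 and 143 wild-type reads and 624 and 489 knockout reads, but 160 and 612 in overexpression, which spans both. It rose by 1.30 on the log2 scale (SE 0.25, adjusted p = 0.000527, edgeR), and did not pass in DESeq2, with robust dispersions or without wild type replicate 2. The largest falls were those of Zm00001d034776 and Zm00001d029620. Zm00001d034776 had 504 and 712 wild-type reads, 184 and 218 knockout reads and 827 and 346 in overexpression. In edgeR it fell by 1.61 on the log2 scale (SE 0.23, adjusted p = 5.2e-06), but it did not pass in DESeq2 (adjusted p = 0.0999) or with robust dispersions (adjusted p = 0.335). Zm00001d029620 had 65 and 50 wild-type reads, 22 in each knockout library, and 49 and 69 in overexpression, so the knockout alone was low. It fell by 1.40 on the log2 scale (SE 0.34, adjusted p = 0.0059, edgeR), a call that ended when wild type replicate 1 or knockout replicate 1 was left out.

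Few transcripts were lost or gained outright. A gene was counted as lost when its reads summed over both knockout libraries were at most 3 and those over both wild-type libraries at least 20, and as gained in the reverse case. There were 12 lost and 10 gained genes among the 45578. All were weakly expressed: the sums in the genotype that had the transcript were 20 to 56 reads for lost genes and 20 to 51 for gained genes. No transcript above 56 reads was lost or gained.

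Many of these cases came from 1 library. Of the lost genes, 9 had at least 5 reads in each wild-type library, and in the other 3 one wild-type library had 0. Of the gained genes, 5 had at least 5 reads in each knockout library, and in the other 5 one knockout library had at most 2. Only 6 of the lost and 3 of the gained genes had enough reads to be tested, and 4 and 1 of these were called. The called losses included a gene with 56 and 0 wild-type reads, so not all of them were seen in both wild-type libraries.

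**Figure D3:**
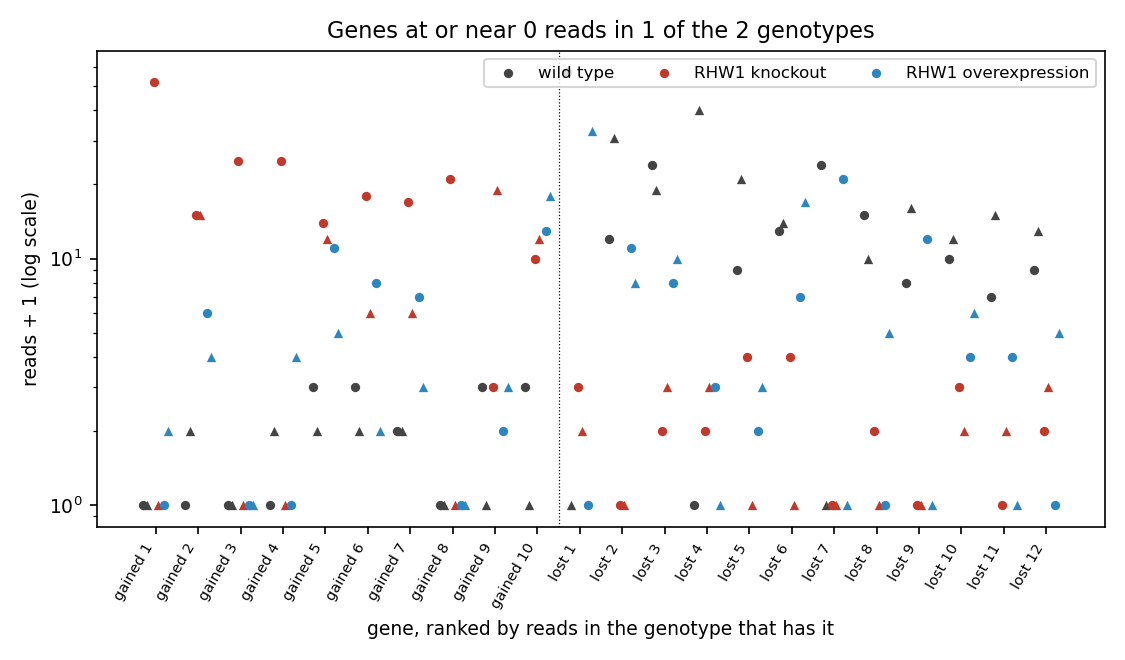
Reads plus 1 (log scale) in each library for the 10 gained and 12 lost genes, each ranked by reads in the genotype that had the transcript; circles are replicate 1, triangles replicate 2, and colours the genotype. In several genes a single library carries the reads. Both overexpression libraries lie between the other genotypes in only a minority of the genes. Elsewhere they differ from each other, lie with the low genotype or, as in Zm00001d041139, exceed the high one. The genes were chosen by their wild-type and knockout reads alone.

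The lost transcripts with the most reads among those present in both wild-type libraries, named after their values were seen, were those of Zm00001d016021 and Zm00001d035003. Zm00001d016021 had 11 and 30 wild-type reads, and no read was counted in either knockout library. With a floor of 3 counts for the knockout group the ratio of wild type to knockout was 13.8, and the exact 95% counting interval for 0 knockout reads began at a ratio of 10.7. Its overexpression libraries had 10 and 7 reads. Zm00001d035003 had 23 and 18 wild-type reads and 1 and 2 knockout reads, a ratio of 13.8 (95% counting interval 4.39 to 69.4), with 7 and 9 reads in overexpression. Both passed the edgeR test (adjusted p = 0.00062 and 0.0037), which is not further support, since the same reads chose them. The first lost its call without wild type replicate 2 (adjusted p = 0.051), and the second without wild type replicate 1 or knockout replicate 1 (up to adjusted p = 0.086).

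The gained gene with reads in both knockout libraries and a call was Zm00001d041966, with 0 and 1 reads in wild type, 14 in each knockout library, and 5 and 3 in overexpression. The read ratio of knockout over wild type was 27.8, with a 95% counting interval of 4.60 to 1138. The call (adjusted p = 0.0116, edgeR) was lost when any 1 of the 4 libraries was left out, with adjusted p up to 0.17. Just outside the limit for wild type, Zm00001d037316 had 1 and 4 wild-type reads and 48 and 51 knockout reads, a ratio of 19.7 (95% counting interval 8.15 to 61.9). Its overexpression libraries differed from each other, with 24 and 2 reads. In edgeR it rose by 4.23 on the log2 scale (SE 0.73, adjusted p = 0.00012), which held when any 1 library was left out but not in DESeq2 without independent filtering (adjusted p = 0.076). Counting intervals and floors cover counting error only. These genes were picked by the same reads, so their ratios, intervals and p-values are not further support.

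Several large fitted changes were decided by 1 library. In 9 called genes, 3 higher and 6 lower, the libraries of the genotypes overlapped, and 0 of the 9 were called by DESeq2 or with robust dispersions. Zm00001d027955 had 26 and 215 wild-type reads and 1255 and 24 knockout reads. Its log2 fold change of 2.35 (adjusted p = 0.008, edgeR) became -2.29 without knockout replicate 1 (adjusted p = 0.0499, edgeR). It had 558 and 408 reads in overexpression.

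The calls were set against 15 other ways of processing the counts. Of the 1954 genes, 522 (2.27% of those tested) passed in the same direction in every alternative that gave them an adjusted p, 204 of them higher and 318 lower. DESeq2, which gives no adjusted p to genes it filters out, gave one to 1737 of the 1954. The 522 were abundant genes with modest changes: their median level was 116 CPM and their median change 1.20-fold. Only 2 of the 58 changes of 2-fold or more were among them, both falls. DESeq2 gave no adjusted p to 53 of the 58, these 2 included, and called 0 of the 58. The 2 were thus judged in 14 alternatives. Zm00001d041067 had 127 and 132 wild-type reads, 52 and 58 knockout reads and 40 and 55 in overexpression. In the knockout it fell by 1.248 on the log2 scale (SE 0.23, adjusted p = 0.000293, edgeR). Zm00001d052015 had 283 and 206 wild-type reads, 140 and 94 knockout reads and 171 and 177 in overexpression. In the knockout it fell by 1.08 on the log2 scale (SE 0.17, adjusted p = 2.05e-05, edgeR).

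Fewer genes were called when any 1 of the 4 libraries was left out. Its genotype then had 1 library, so some loss follows from the design, whichever library is dropped. Without wild type replicate 1, 846 of the 1954 genes were still called in the same direction, and without wild type replicate 2 there were 1075. The numbers were 931 without knockout replicate 1 and 1107 without knockout replicate 2. Of the 58 genes at 2-fold or more, 15, 26, 21 and 29 were still called in these 4 cases. DESeq2 kept 986 of the 1737 genes to which it gave an adjusted p. Leaving out an overexpression library kept 1940 and 1935 of the 1954.

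**Figure D4:**
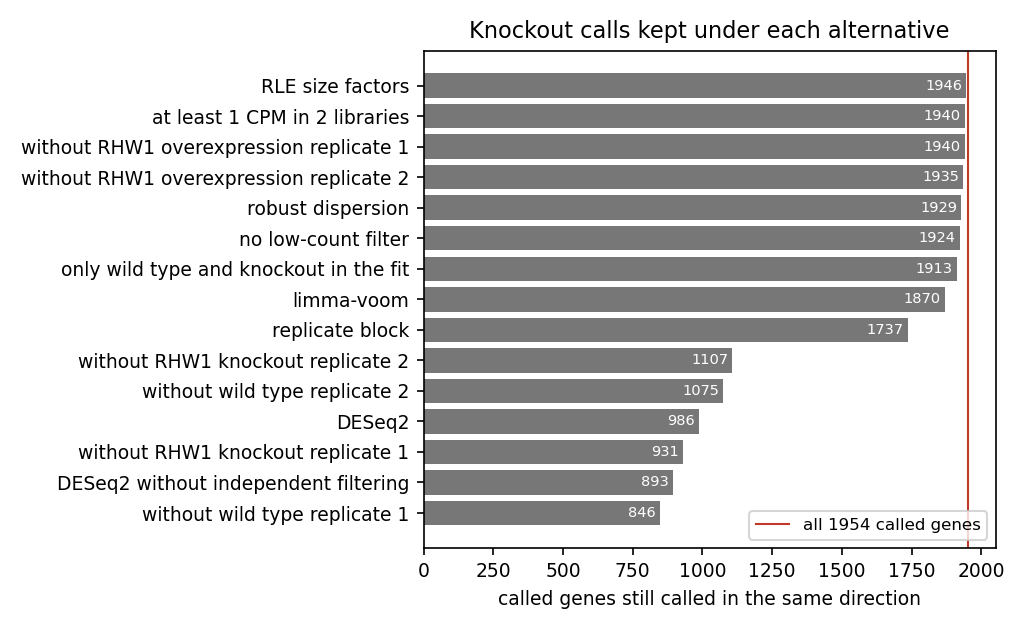
Bars give how many of the 1954 called genes were called in the same direction under each alternative; the line marks all 1954. Other scalings, filters and dispersions and limma-voom kept 1870 or more and the replicate block 1737, whereas DESeq2 and leaving out a wild-type or knockout library kept 846 to 1107.

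Called genes were then ordered by the number in their Zm00001d identifier. The labels and files state no positions for these genes, so this is an order of identifiers and not a map. Of the 1028 genes called lower, 7.10% were followed by another gene called lower at the next tested identifier, beside 4.48% of all tested genes, and 4.09% by one called higher. Of the 919 called higher, 5.66% were followed by another called higher, beside 4.04%. The shares did not fall steadily with distance. For lower calls they were 5.93% at 2 identifiers apart, 4.19% at 5, 6.13% at 10 and 5.26% at 20, and for higher calls 4.24%, 3.59%, 4.90% and 4.35%.

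One run was longer than the rest; it was picked with its values known. From Zm00001d048702 to Zm00001d048711, 7 consecutive tested genes were all called lower, while the other runs of called genes held at most 3. Their wild-type means ranged from 45.8 to 1264 CPM. Their log2 fold changes were -0.45, -0.34, -0.37, -0.14, -0.51, -0.34 and -0.38 in the order of the identifiers, with adjusted p from 7.71e-19 to 0.0089 (edgeR). In all 7 both knockout libraries were below both wild-type libraries. This held for 24.2% of all tested genes and 99.4% of those called lower, so it adds nothing to the calls. Summed over the 7 genes, the level was 4307 and 4205 CPM in wild type, 3242 and 3297 in the knockout, and 4040 and 3976 CPM in overexpression.

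The overexpression libraries set the members of the run apart from each other. The first, Zm00001d048702, had wild-type levels of 1288 and 1240 CPM, with 920.7 and 924.6 in the knockout and 1014 and 1013 in overexpression, so both modified lines were below wild type. The fifth, Zm00001d048709, had wild-type levels of 246.1 and 250.8 CPM, with 172.1 and 177.7 in the knockout and 362.7 and 360.2 in overexpression, so wild type lay in between. Against the same wild-type libraries, overexpression gave log2 fold changes from -0.36 to 0.54 over the 7 genes. In the knockout, 6 of the 7 passed in all 15 alternatives, as 522 of all 1954 called genes did wherever given an adjusted p. The fourth, Zm00001d048707, lost its call without wild type replicate 2 or knockout replicate 1, with adjusted p up to 0.164 (edgeR). The tested genes next to the run did not follow it throughout. The one before it, Zm00001d048701, had a log2 fold change of -0.39 that did not pass (adjusted p = 0.07, edgeR), and the one after it, Zm00001d048717, had 0.01 (adjusted p = 0.97, edgeR).

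**Figure D5:**
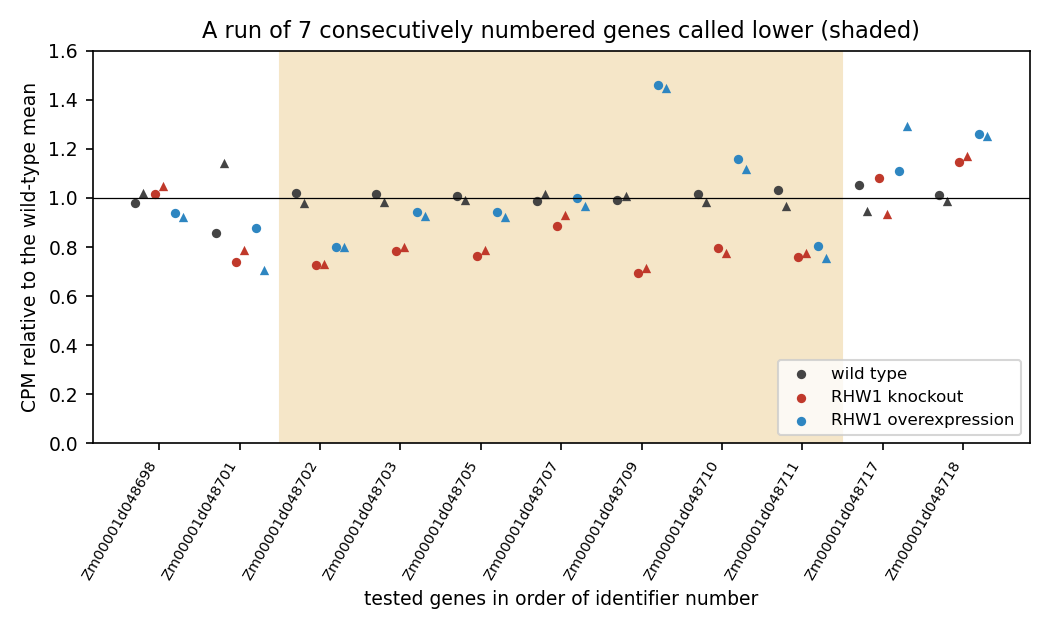
CPM in each library divided by the wild-type mean of the gene, for 11 tested genes in order of identifier number; circles are replicate 1, triangles replicate 2, colours the genotype, and the shaded genes are the run of 7. The knockout libraries are below 1 and below wild type in each shaded gene, while the overexpression libraries range from below the wild type to well above it.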

How the data were processed

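Per the labels, total RNA of young maize ears was extracted with a plant kit, treated with DNase and made into libraries with the NEBNext Ultra II kit. The deposited values are raw read counts per gene, not normalized by the authors. Per the submitters' processing notes, HISAT2 2.1.0, StringTie, HTSeq, Trimmomatic 0.35 and edgeR 3.32.1 were used, without stated roles; for genome build, annotation, strand setting and batches the sources used here give nothing. Overlapping, antisense and near-identical genes therefore have uncertain counts. All 6 columns were used, and 0 were left out.

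Genes were kept with filterByExpr (minimum count 10), holding 99.9% of reads in each library. Counts were scaled by TMM and tested with the edgeR 4.0.16 quasi-likelihood F-test (R 4.3.3) in 1 fit of 6 libraries with 3 group means, with Benjamini-Hochberg adjustment over all 22947 genes. The standard error is the log2 fold change divided by the square root of F. The biological coefficient of variation was 3.82%, and the spread of a gene rested mostly on all genes (33.2 prior against 3 residual degrees of freedom). The procedure was tested on simulated data. Replicates differed beyond counting noise (chi-square per gene of 2.38 in wild type and 2.62 in the knockout), so each counted as 1 sample. Replicate numbers are not stated to pair libraries, and the main fit did not pair them.

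The reference table (RefSeq, Zm-B73-REFERENCE-NAM-5.0) matched 153 microRNA names and 0 of the other identifiers, so 34 gene lists fixed by name could not be read. The rule for named genes fell back to microRNA genes plus 2 unnamed rises and 2 unnamed falls; other identifiers were chosen after their values were seen. The members and lists were chosen with earlier results of these data known. Alternatives used DESeq2 1.42.0, limma-voom (limma 3.58.1), other scalings, filters, dispersions and fits, and each library left out.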

Additional observations from a re-analysis of the deposited data

How the results depend on the processing

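The count of 1954 called genes stayed within 1.5 times under RLE size factors, both other low-count filters, limma-voom, robust dispersions and a fit of wild type and knockout alone. DESeq2 called 986 genes, and 893 without independent filtering, a setting added after the data were seen. A 2-fold minimum left 58, since it only removes genes. Leaving out 1 library gave 909 to 2129 calls; fewer libraries were then tested. With the replicate number as a block, 1743 genes were called. Deviations from the group means of libraries sharing a number correlated at -0.00862, so the labels' numbers gave no sign of pairing. The 22 lost or gained genes became 6 with a floor of 0 reads, 60 with a floor of 6 reads and 2 with at least 50 reads in the other genotype, so this count follows its limits. For 27 called genes described singly, 388 values were computed: 337 kept their call, 49 lost it and 2 changed sign. The 2 were ENSRNA049478207 without knockout replicate 2 (log2 fold change -0.28; -0.28 to 4.48 over single libraries left out) and Zm00001d027955 without knockout replicate 1 (-2.29; -2.29 to 4.58). Settings for gene lists were not run, as no list could be read. Changes under 1.48-fold were not called in the lowest of 4 equal groups by expression, where depth limits detection.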
